A study of Mus musculus with 4 samples.

Results

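The NF-kappaB genes followed here number 10: the subunit genes Nfkb1, Nfkb2, Rel, Rela and Relb, the IkB genes Nfkbia, Nfkbib and Nfkbie, the IkB-like gene Bcl3, and Tnfaip3, which encodes the ubiquitin-editing enzyme A20. Members were the probe sets whose only gene symbol in the platform annotation was one of these, each taken separately. They numbered 13 of 22626 probe sets and covered 9 of the 10 genes, out of 12393 genes named on the array. Nfkb1, whose product is processed into a DNA-binding subunit, was not analysed here, as no probe set carried it as its only symbol in the annotation used.

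The cells were mouse bone marrow-derived mast cells, grown for 4 to 6 weeks with interleukin-3 at 5 ng/ml from femur and tibia marrow of mice aged 8 to 12 weeks. One group was wild-type (Pac1+/+) and the other Pac1-/-, which lacks the MAP kinase phosphatase encoded by Dusp2. Each genotype had 2 cultures, numbered replicates 1 and 2, with 1 array per culture, and this small number of arrays limits how precise any value can be. IgE specific for dinitrophenyl, at 100 ng/ml, was bound to all 4 cultures over 18 h. The antigen DNP-HSA was then added at 20 ng/ml for 2 h to crosslink the IgE receptor FceRI, so every level below is that of activated cells. For all 4 cultures the sample notes give over 98% of cells as positive for Kit and FceRI. The construction of the Pac1 allele and any pooling of marrow are not given in the sources used here.

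In resting cells IkB proteins hold NF-kappaB dimers in the cytoplasm. Crosslinking of FceRI signals through protein kinase C and the Bcl10 adaptor to the IkB kinase complex, which marks IkB proteins for degradation and so lets the dimers enter the nucleus, where they turn on genes for cytokines and survival factors. Nfkbia and Tnfaip3 are themselves textbook targets of NF-kappaB, and their products switch the pathway off again.

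The stretches before the start sites of 3 inhibitor genes are shown because these genes carry the largest genotype differences or the brightest signal among the members. Each is the 250 bases upstream of a start site, from RefSeq on build GRCm38.p6, written 5′ to 3′ on the gene's own strand, with matches to the kappaB consensus on either strand in capitals.
Tnfaip3, chr10:19015411-19015660, minus strand: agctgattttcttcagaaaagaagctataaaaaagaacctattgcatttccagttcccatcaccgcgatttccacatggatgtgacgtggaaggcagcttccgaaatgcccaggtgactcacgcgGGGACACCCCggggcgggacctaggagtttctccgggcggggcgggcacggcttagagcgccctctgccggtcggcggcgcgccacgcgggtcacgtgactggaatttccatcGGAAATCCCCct
Nfkbia, chr12:55492648-55492897, minus strand: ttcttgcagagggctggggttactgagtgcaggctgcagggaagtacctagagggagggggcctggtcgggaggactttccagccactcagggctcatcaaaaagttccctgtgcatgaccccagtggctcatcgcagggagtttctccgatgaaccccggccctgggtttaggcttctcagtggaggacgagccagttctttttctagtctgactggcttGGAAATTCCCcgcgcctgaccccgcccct
Nfkbib, chr7:28766645-28766894, minus strand: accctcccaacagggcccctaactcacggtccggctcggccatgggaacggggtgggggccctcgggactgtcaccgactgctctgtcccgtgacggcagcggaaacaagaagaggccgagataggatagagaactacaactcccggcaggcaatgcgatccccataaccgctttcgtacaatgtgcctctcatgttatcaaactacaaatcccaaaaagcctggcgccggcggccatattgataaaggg
The search covered windows of 300 bases, which run 50 bases past the start. The Tnfaip3 window held matches whose first bases lay at -125 and -12 from the start, and the Nfkbia window held 1 at -29. The Nfkbib window held none, nor did the window at a further Tnfaip3 start. Of the 8 member genes with a window, 6 held a match (Nfkb2, Rel, Nfkbia, Nfkbie, Bcl3 and Tnfaip3), while Rela and Nfkbib did not. Of all 32851 such windows in the RefSeq set 4.51% held a match, and by gene 5.14% did. In Nfkb2 and Rel some matches overlap each other or read the same on both strands, and windows of nearby Nfkb2 starts overlap. A match here is a run of letters, not a measured binding site.

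Some facts of the arrays bear on what follows. Of 13 mast cell markers 11 had a normalised intensity of at least 100 on all 4 arrays, and their summed level was 57752 and 52173 in wild-type replicates 1 and 2 and 61061 and 50589 in Pac1-/- replicates 1 and 2. Some of them stood apart on single arrays: the tryptase gene Tpsb2 read 476 on Pac1-/- replicate 2 against 5838 to 7259 on the others, and Ms4a2, the FceRI beta chain gene, read 143 and 41.9 in replicate 1 against 3261 and 1502 in replicate 2 of wild-type and Pac1-/- cells. Of the macrophage markers 6 of 9 were under 100 on all 4 arrays, with Marco and C1qa under 16. Their sum was 7873 (wild-type) and 5954 (Pac1-/-) in replicate 1, mostly Cd68. In replicate 2 it was 561 and 454, of which Cd68 made up 118 and 121. Adgre1 was also above 100 on every array. It read 248 and 250 in wild-type and 222 and 217 in Pac1-/- replicates 1 and 2. All 5 stromal and all 6 lymphocyte markers were under 100 on every array, as were 5 of 7 neutrophil and 3 of 4 erythroid markers, with highest sums of 163, 146, 490 and 169. The only basophil marker with a probe set, Mcpt8, lay between 82.1 and 128. The 3' to 5' signal ratio of the beta-actin control was 109 and 1.58 on wild-type replicates 1 and 2 and 293 and 54.8 on Pac1-/- replicates 1 and 2, and that of the GAPDH control was 0.798, 0.839, 1.36 and 191 in the same order. Pac1-/- replicate 2 also had the lowest median deposited intensity, 24.5 against 40.6 to 49.3 on the others. Both genotypes differed between replicate numbers in sex-linked genes, with Xist at 47.7 and 41.7 in replicate 1 of wild-type and Pac1-/- cells but at 2952 and 984 in replicate 2. Eif2s3y ran the other way, at 219 and 275 in replicate 1 and at 0.95 and 2.1 in replicate 2. Dusp2 itself read 167 and 90.7 in wild-type and 109 and 75.5 in Pac1-/- cells, and where its probes lie against the deletion is likewise not given.

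Among the inhibitors, the signals of Tnfaip3 and Nfkbib were lower on both Pac1-/- arrays than on both wild-type arrays. So were 14.7% of all 22626 probe sets. The 4 probe sets of Nfkbia pointed in different directions, with 1448306_at lower and 1449731_s_at higher on both Pac1-/- arrays. After Benjamini-Hochberg adjustment limma called no member, nor any other probe set on the array (0 of 7770 tested at an adjusted p under 0.05, 0%; 263 at an unadjusted p under 0.05, 3.38%). The Tnfaip3, Nfkbib and other differences are therefore given as values. In bulk RNA a lower signal from fewer cells that hold a transcript and one from less transcript per cell cannot be told apart.

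Tnfaip3 had a normalised intensity of 113 and 209 on wild-type replicates 1 and 2 and of 5.75 and 7.525 on Pac1-/- replicates 1 and 2. The deposited intensities were 122.5, 213.6, 4.9 and 3.9. The genotypes were far apart on both scales, and both Pac1-/- arrays lay below the floor of 16 to which low values were raised before log2 was taken. Log2 differences here are Pac1-/- minus wild-type, and that of Tnfaip3 was -2.82 in replicate 1 and -3.71 in replicate 2. No exact size can be given, since the mean was -3.27 with the floor at 16 and -1.27 with the floor at 64. With a mean of 83.9 over the 4 arrays the probe set missed the minimum of 100 and was not tested. In a limma fit with no minimum the Tnfaip3 difference, -3.27 ± 0.40 (SE; 95% confidence interval -4.71 to -1.82; n = 2 for each genotype), was past an unadjusted p of 0.05 but not past the adjusted test (limma adjusted p = 0.399). The floor gives both Pac1-/- arrays the same value there, so that error is too small, and 2.32% of the 22626 probe sets in that fit were lower at an unadjusted p under 0.05.

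How rare such a pattern was on these arrays was counted with limits chosen after the values were seen. Of 5799 probe sets that read at least 100 on both wild-type arrays, 1 read under 16 on both Pac1-/- arrays, 0.0172%, and it was that of Tnfaip3. The opposite pattern, at least 100 on both Pac1-/- and under 16 on both wild-type arrays, was met by 0 of 5755. On the deposited values 2 of 6208 met the first pattern, 0.0322%, Tnfaip3 and the GTP-binding protein gene Gtpbp4. In 5 of 22626 probe sets, 0.0221%, both replicate numbers showed a drop of at least the smaller Tnfaip3 difference, the others being those of Wars, Eif3a, Ikzf1 and Eif5a, and in 0 was there as large an increase in both. These counts describe the 4 arrays and carry no test. Tnfaip3 meets limits set with its own values known, so its place among the probe sets counted is no support. Within each replicate number the Pac1-/- array was also the one with the higher beta-actin 3' to 5' ratio, and the part of this in the Tnfaip3 difference was not tested.

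Nfkbib encodes IkB beta, which like IkB alpha retains NF-kappaB dimers in the cytoplasm. Its probe set, whose suffix marks probes shared by more than 1 transcript, had a normalised intensity of 226 and 290 on wild-type replicates 1 and 2 and of 39.05 and 105 on Pac1-/- replicates 1 and 2. The Pac1-/- arrays were both below the wild-type arrays, and the higher of them was replicate 2, the array with the high GAPDH ratio. On the log2 scale the levels were 8.00 ± 0.25 in wild-type and 6.00 ± 1.01 in Pac1-/- cells (SD, n = 2). The difference was -2.00 ± 0.64 (SE; 95% confidence interval -3.83 to -0.17; limma adjusted p = 0.866), past the threshold of 0.05 before adjustment and not after it. Of all tested probe sets 1.13% were lower at that unadjusted level (0.347% when arrays were centred on their medians, 1.22% on the deposited values). The unadjusted call ended with median centring and with no minimum. It ended too when either wild-type array was left out, and when Pac1-/- replicate 1 was, which moved the difference to -1.29.

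Nfkbia encodes IkB alpha, the inhibitor that is degraded fastest on activation and made anew by NF-kappaB itself. Its brightest probe set, 1420088_at, read 1861 and 2152 in wild-type and 1879 and 2727 in Pac1-/- replicates 1 and 2, and the genotypes overlapped. Transcript of this inhibitor was thus bright on all 4 arrays, and the difference was 0.18 ± 0.40 (SE; 95% confidence interval -0.97 to 1.33; limma adjusted p = 0.959). The interval still allows a change of over 1 log2 unit upward. With median centring the difference was 0.98, on a scale where the tested probe sets had a median of 0.66.

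Of the 3 other Nfkbia probe sets, 1420089_at also had overlapping genotypes and a small difference. The others, 1448306_at and 1449731_s_at, differed in opposite directions. Probe set 1420089_at read 147 and 193 in wild-type and 140.2 and 213 in Pac1-/- cells, a difference of 0.037 ± 0.43 (SE). Median centring moved this to 0.60, against the median of 0.66 over the tested probe sets. For 1448306_at the signal was 319 and 321 in wild-type and 297 and 102 in Pac1-/- cells. The value that stood apart there was Pac1-/- replicate 2, and the difference of -0.87 ± 0.66 (SE) was -0.10 in replicate 1 and -1.65 in replicate 2. Without Pac1-/- replicate 2 it was -0.11, and without Pac1-/- replicate 1 it was -1.64, then past limma's unadjusted test. For 1449731_s_at, with the same suffix as the Nfkbib probe set, the signal was 295 and 177 in wild-type and 328 and 403 in Pac1-/- cells, a difference of 0.67 ± 0.45 (SE). Leaving out wild-type replicate 1 moved this to 1.04, leaving out wild-type replicate 2 to 0.30, and median centring to 1.32 (tested probe sets 0.66). One Nfkbia probe set was thus lower and another higher on both Pac1-/- arrays, with a limma adjusted p of 0.866 each. The same array, Pac1-/- replicate 2, gave the lowest of the 4 readings for 1448306_at and the highest for each of the other Nfkbia probe sets, and the part of its GAPDH ratio of 191 in this was not tested.

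**Figure D1:**
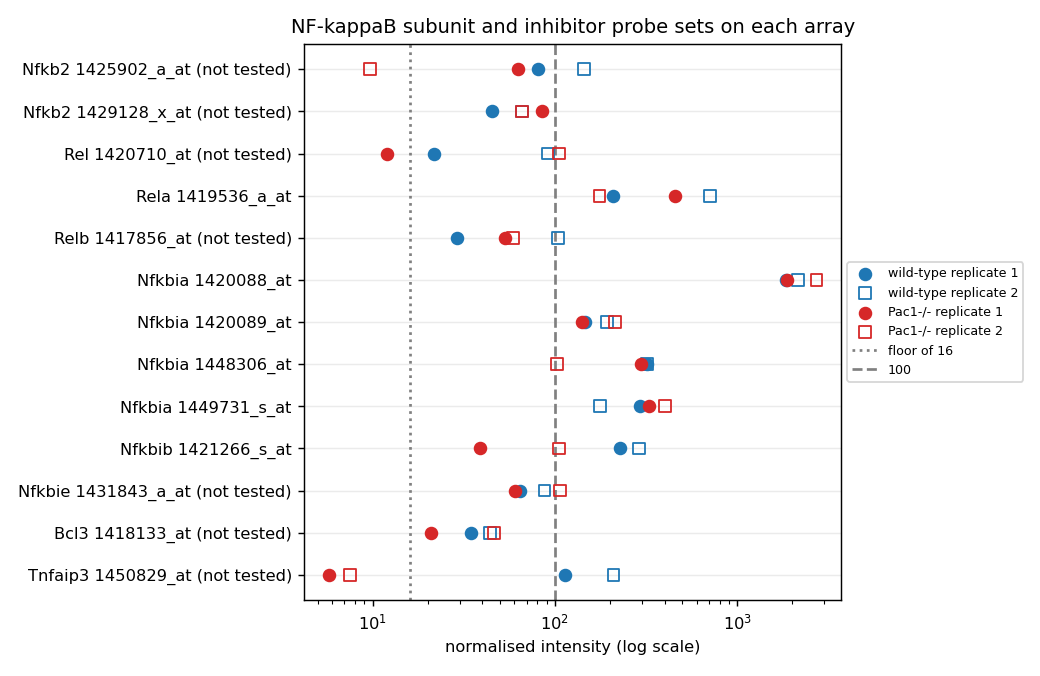
Normalised intensity (log scale) of the 13 member probe sets on each of the 4 arrays, with wild-type in blue, Pac1-/- in red, replicate 1 as filled circles and replicate 2 as open squares; the lines mark the floor of 16 and an intensity of 100. Both Pac1-/- readings of Tnfaip3, 5.75 and 7.525, lie left of the floor while the wild-type readings are above 100.

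The remaining inhibitors were dim. Nfkbie, which encodes IkB epsilon, read 64.1 and 87.55 in wild-type and 60.2 and 107 in Pac1-/- cells, and its genotypes overlapped. Bcl3 encodes an IkB family member that resides in the nucleus and can act as a coactivator, and it read 34.4 and 43.9 in wild-type and 20.9 and 46.3 in Pac1-/- cells. Both genes were below the minimum and were not tested, and for both the replicate 2 array was the higher one in either genotype. Their log2 differences were 0.10 and -0.32, and without Pac1-/- replicate 2 they were -0.31 and -0.89. Without Pac1-/- replicate 1 they were 0.52 and 0.25, and with the floor at 64 they were 0.14 and 0.

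Among the subunits only Rela was bright enough to test. Rela encodes p65, the subunit with the strongest transactivation domain in the classical pathway. Its probe set read 208 and 707 in wild-type and 459 and 175 in Pac1-/- replicates 1 and 2. The lowest and the highest reading both came from the replicate 2 arrays. In replicate 1 wild-type lay below Pac1-/-, so the genotypes overlapped. The order was thus turned between replicate numbers, at 1.14 and -2.01 on the log2 scale. The difference of -0.44 ± 0.89 (SE; 95% confidence interval -2.99 to 2.12; limma adjusted p = 0.949) turned positive when either replicate 2 array was left out, at 0.45 without the wild-type and 0.26 without the Pac1-/- one. With median centring it was 0.10, on a scale where the tested probe sets had a median of 0.66.

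The other subunits missed the minimum. Rel, the lymphoid and myeloid subunit c-Rel, read 21.8 and 91.5 in wild-type and 11.9 and 104.9 in Pac1-/- replicates 1 and 2. Both replicate 2 arrays were above both replicate 1 arrays, with a log2 difference of 2.39 between the numbers against -0.12 between the genotypes. The reading of 11.9 lay below the floor, and the genotype difference of Rel had no stable sign, being 0.10 with the floor at 64, 0.05 with median centring and -1.48 to 1.23 with 1 array left out. Relb, which pairs with the processed Nfkb2 product in the alternative pathway, read 28.95 and 104 in wild-type and 53.4 and 58.9 in Pac1-/- cells, and both Pac1-/- values lay between the wild-type values, with differences of -0.89 to 0.95 when 1 array was left out.

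Nfkb2, which encodes the precursor whose processing the alternative pathway controls, had 2 probe sets that differed in direction. Probe set 1425902_a_at read 80.9 and 145 in wild-type and 62.9 and 9.68 in Pac1-/- cells, with both Pac1-/- arrays below wild-type and replicate 2 below the floor. Its log2 difference was -0.36 in replicate 1, and the floor sets the -3.18 of replicate 2. The mean, -1.77, was -0.76 with the floor at 64. Probe set 1429128_x_at, of a type that may bind unrelated transcripts, read 45.4 and 65.8 in wild-type and 85.2 and 66.0 in Pac1-/- cells. The replicate 2 arrays were nearly equal in it, and on the deposited values the difference of 0.46 became -0.01.

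**Figure D2:**
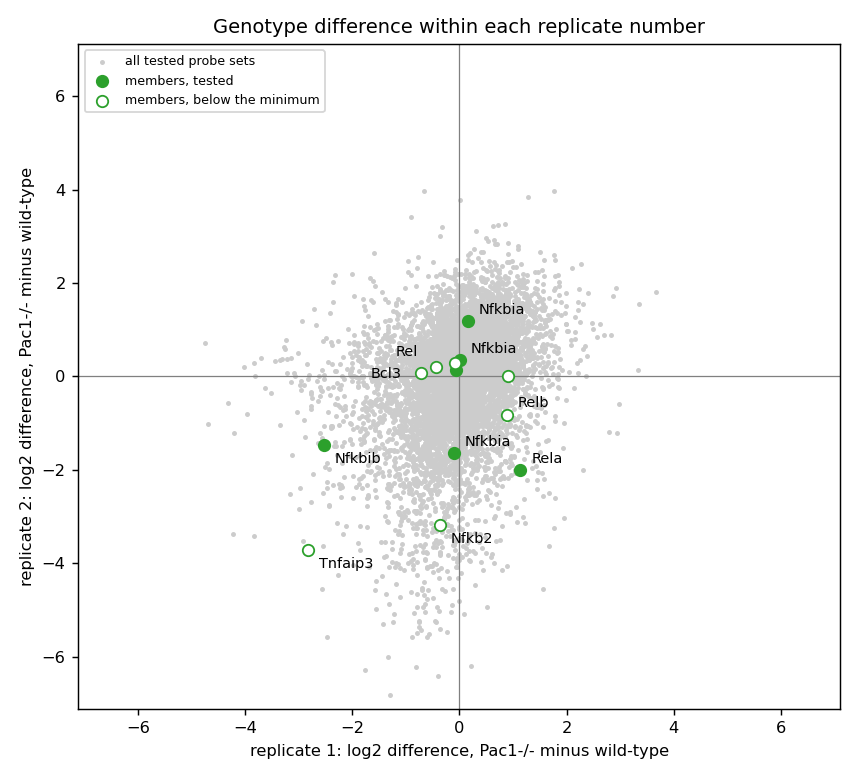
Log2 difference, Pac1-/- minus wild-type, within replicate 1 (x axis) and within replicate 2 (y axis) for the 7770 tested probe sets (grey), the tested members (filled green) and the members below the minimum (open green). Tnfaip3 at -2.82 and -3.71 and Nfkbib at -2.53 and -1.46 lie low on both axes, whereas Rela at 1.14 and -2.01 has opposite signs.

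Taking the members as a group, 6 of 13 probe sets passed the minimum, from 3 genes (Nfkbia, Nfkbib and Rela). Of these 6, 3 had a positive and 3 a negative difference, 1 was past the unadjusted test (background 3.38%), and the median log2 difference was -0.20 against 0.06 over all tested probe sets. In 3 of the 6 the genotypes did not overlap, where 37.7% of all tested probe sets were without overlap. With those below the minimum included it was 6 of 13, 46.2%, with 2 higher and 4 lower, against 36.6% of all 22626 probe sets (21.9% higher and 14.7% lower). A share this near the background says nothing particular about the members. The replicate numbers differed by more than the genotypes in 2 of the 6 tested member probe sets, against 50.7% of all tested ones, and in 6 of the 13 with no minimum, against 39.3% of all 22626. The group median was 0.35 with median centring, still below the 0.66 of the tested probe sets there, and 0.26 without wild-type replicate 2.

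**Figure D3:**
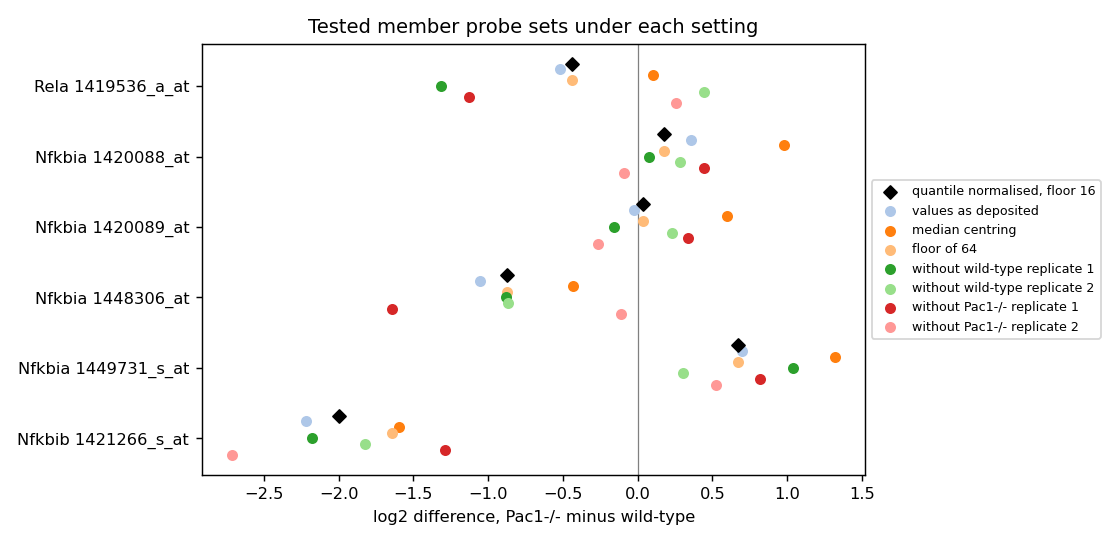
Log2 difference, Pac1-/- minus wild-type (x axis), of the 6 tested member probe sets under the quantile-normalised setting (black diamonds) and under other scalings, a floor of 64 or with 1 array left out (coloured circles). Nfkbib stays below 0 in all settings drawn, from -2.71 to -1.29, while Rela lies on both sides of 0.

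The genes around the members were taken from 3 lists, each gene by its brightest probe set. The activators are kinases and adaptors that lead to the IkB kinase complex, and 12 of 23 were tested. Ikbkg, the regulatory subunit of that complex, was past the unadjusted test and higher, and 0 activators were past it and lower. Of the 4998 tested genes 2.3% were past it and higher and 0.62% past it and lower (of all tested probe sets 2.25% were higher, 3.69% with median centring and 1.42% on the deposited values). The list's median log2 difference was 0.27 against 0.10 for all 4998 tested genes. Without Pac1-/- replicate 1 the order turned, at 0.20 against 0.24, and without wild-type replicate 1 the list's median was 0.42. Its 4 genes with the lowest p all read higher on both Pac1-/- arrays. Ikbkg read 157 and 93.0 in wild-type and 302 and 314 in Pac1-/- cells, a difference of 1.35 ± 0.44 (SE; limma adjusted p = 0.866). The call did not hold for the gene as a whole, since its other tested probe sets were at 0.14 and -0.63 and 1 below the minimum was at -1.43. It also ended with any 1 array left out. The catalytic subunit gene Ikbkb read 191 and 273 in wild-type and 412 and 532 in Pac1-/- cells, a difference of 1.04 ± 0.41 (SE), and its second tested probe set was at -0.37. Ikbkb had 2 more probe sets below the minimum, at -1.81 and -0.56, and both were lower on both Pac1-/- arrays. The adaptor gene Tab2 was at 0.75 ± 0.38 and the IkB kinase-related kinase gene Tbk1 at 0.77 ± 0.43 (SE). A further Tab2 probe set was at -1.02.

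Of the other inhibitors of the pathway, 11 of 17 were tested, and 0 were past limma's unadjusted test in either direction. Their median log2 difference was 0.10. It was -0.02 without Pac1-/- replicate 2 and 0.25 without Pac1-/- replicate 1, against 0.14 and 0.24 for all tested genes. With median centring it was 0.69 against 0.72. Over all tested genes the shares past the test, 2.3% higher and 0.62% lower, are the background here and for the target genes. Commd1, which promotes turnover of Rela, read 795 and 312 in wild-type and 118 and 227 in Pac1-/- cells, a difference of -1.61 ± 0.69 (SE). It was -0.94 both with median centring and with wild-type replicate 1 left out. A dimmer Commd1 probe set, below the minimum, was at 1.20. The nuclear IkB gene Nfkbiz was at 0.54 ± 0.40, the A20 partner ubiquitin ligase gene Itch at 0.43 ± 0.38, and Tnip1, whose product binds A20, at 0.30 ± 0.39 (SE). The second Nfkbiz probe set was at -0.61. The A20 partner genes Itch and Tnip1 thus did not share the low Pac1-/- readings of Tnfaip3, and their intervals were not set against it in a test.

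Of the textbook target genes 23 of 40 were tested, with 2 past the unadjusted test and higher, 0 past it and lower, and a median of -0.02. These were the inhibitor of apoptosis genes Birc3, at 228 and 287 in wild-type and 570 and 724 in Pac1-/- cells, and Birc2, at 101 and 129 against 220 and 302. Their differences were 1.33 ± 0.38 and 1.18 ± 0.40 (SE; limma adjusted p = 0.866 each). On the deposited values and with median centring Birc2 was no longer past the unadjusted test, and both calls ended with any 1 array left out. The AP-1 gene Junb, at 145 and 338 in wild-type and 90.5 and 24.95 in Pac1-/- cells, and the protease gene Plau, at 32.9 and 2.30 against 419 and 56.4, had differences of -2.22 ± 0.88 and 2.74 ± 1.18 (SE). Both genes read low on some arrays, and with the floor at 64 the differences were -1.54 and 1.36. Junb was past the unadjusted test when Pac1-/- replicate 1 was left out (-3.15), as Plau was when Pac1-/- replicate 2 was (4.19). A dimmer Plau probe set, below the minimum, was at 0.13, and its genotypes overlapped. The list's median of -0.02 stood against 0.10 for all tested genes, and with median centring it was 0.48 against 0.72. It was 0.33 against 0.13 without wild-type replicate 1 and 0.04 against 0.18 without wild-type replicate 2. Without Pac1-/- replicate 1 it was 0.29 against 0.24, and without Pac1-/- replicate 2 it was 0.39 against 0.14.

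**Figure D4:**
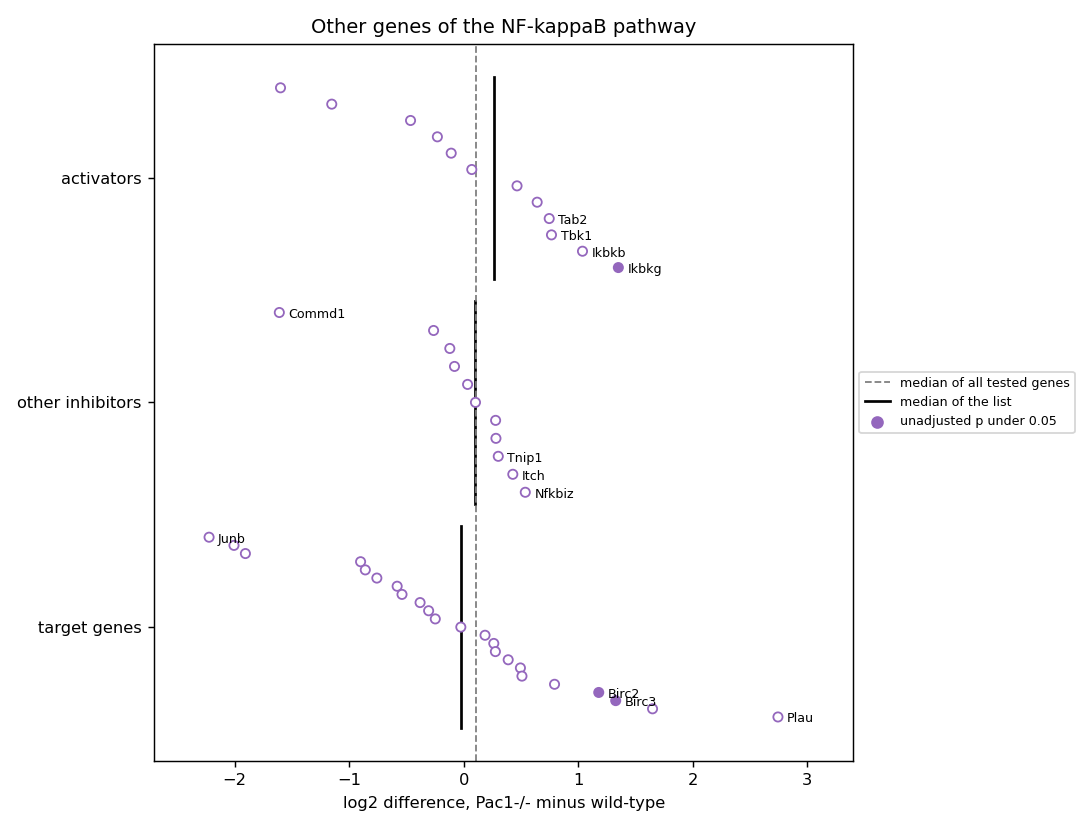
Log2 difference, Pac1-/- minus wild-type (x axis), of the tested genes in the lists of activators, other inhibitors and target genes, 1 point per gene; filled points had an unadjusted limma p under 0.05, black bars are list medians and the dashed line is the median of all tested genes. The 3 filled points, Ikbkg, Birc2 and Birc3, lie above 1, and no filled point lies below 0.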

How the data were processed

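The authors made the deposited linear intensity values with MAS5, per the submitters' processing notes. Trimmed by 2% at either end, every array averaged 150.1, which shows a common scaling. The series' design text describes RMA, whose values were not used here. After 64 control probe sets were left out, the linear values of the 4 arrays were quantile normalised, raised to a floor of 16 and put on the log2 scale. The 7770 probe sets with a mean of at least 100 were tested with limma 3.58.1 in R 4.3.3 (lmFit, then eBayes; a model of genotype alone; two-sided; Benjamini-Hochberg over all tested). The limma fit alone was tested on simulated log2 values, whose noise was independent and smaller than the spread of many member probe sets. The normalisation, floor and minimum were not tested that way. With 2 arrays a genotype the smallest p an exact permutation test allows is 0.333, so none was run. Members and lists were chosen with earlier results of these data known. Every member probe set is described, and from each list the 4 tested genes with the lowest p are named. Gtpbp4, Wars, Eif3a, Ikzf1, Eif5a, Cd68, Adgre1, Marco, C1qa, Mcpt8, Tpsb2, Ms4a2, Bcl2l1, Map3k7, Xist and Eif2s3y are outside that rule. They were picked once their values were known. The cultures were independent per the series' design text. The p-values rest on the spread between the 2 of a genotype, which eBayes draws towards the spread of all tested probe sets. The alternatives were the deposited values, median centring, a floor of 64, no minimum, a minimum of 200, the replicate number as a block and leaving out each array.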

Additional observations from a re-analysis of the deposited data

How the results depend on the processing

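No probe set passed limma's adjusted test under any of the 10 alternatives. The count of members past the unadjusted test was 1, and became 0 with median centring and with a minimum of 200 (where Nfkbib is no longer tested), and 0 to 1 with 1 array left out; without Pac1-/- replicate 1 that member was Nfkbia 1448306_at, not Nfkbib. The median of the tested members, -0.20, was 0.35 with median centring and -0.52 to 0.26 with 1 array left out. Rela, at -0.44, was 0.10 with median centring and -1.32 to 0.45 with 1 array left out. Nfkbia 1420088_at, at 0.18, ranged from -0.091 to 0.45 and 1420089_at, at 0.037, from -0.26 to 0.34 with 1 array left out, and the latter was -0.026 on the deposited values. The cause was not tested. Over all probe sets the 263 unadjusted calls became 1762 with no minimum, 110 with a minimum of 200 and 79 to 408 with 1 array left out.

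With the replicate number as a block the unadjusted calls rose from 263 to 899, with 0 adjusted calls (lowest limma adjusted p = 0.371), and the members' count stayed at 1, Nfkbib. In the lists the block gave 1 higher and 1 lower activator (Map3k7), 0 higher and 1 lower inhibitor (Commd1), and 3 higher and 2 lower targets (Junb and Bcl2l1 lower, Plau the added higher one), against 188 higher and 230 lower of 4998 genes. Deviations from the genotype means correlated at r = 0.751 between same-numbered arrays, across tested probe sets that are not independent of each other. Of the sum of squares over all tested probe sets, 71.9% went with replicate number and 17.9% with genotype. For the tested members these shares were 16.9% and 49.6%. Same-numbered arrays were also alike in the sex-linked genes Xist and Eif2s3y. The labels do not say what a number stands for, and with 2 pairs a pairing of the cultures cannot be established. The main fit, of genotype alone, leaves the replicate number out. Where an array is left out, the fit takes the spread of the lone remaining array from the other genotype.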
